A study of Mus musculus with 4 samples.

Results

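Glycolysis, lactate export and the pentose phosphate pathway are described here through 31 named genes, of which 30 had an entry of their own among the 23275 entries of the authors' deposited table, and all 30 were tested by the authors. The genes were chosen by symbol from textbook membership of the pathways, with earlier results of these data known. Eno1, the main enolase of most cells, has no single entry and stands only in an entry shared with Gm5506. RNA with poly(A) tails was measured by sequencing in B220+CD43+ cells, an early B-lineage gate, sorted from bone marrow of C57BL/6 mice aged 8 weeks. The Hdac3 KO group, of genotype Hdac3F/-Mb1cre+/-, had 2 libraries and carried 1 conditional and 1 null allele of Hdac3. The WT group, of genotype Hdac3+/+Mb1cre+/-, also had 2 libraries and carried the same Mb1cre, a recombinase driven from the Cd79a locus in B-lineage cells. Each library pooled cells from 2 mice. Levels are given in FPKM, a count of fragments scaled to transcript length and library size, as 1 value that the authors made for each genotype, with no value or spread per library. Whether the pools were independent beyond being separate samples is not stated, and the depth of the libraries is unknown.

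Hdac3 itself, the deleted gene and the catalytic subunit of the NCoR and SMRT corepressor complexes, was 22.0 FPKM in Hdac3 KO cells and 46.8 FPKM in WT cells. A gene is called changed where q, the p-value adjusted over all tested entries, is under 0.05 in the authors' deposited Cuffdiff comparison. Of 12683 tested entries, 6.95% were called, 2.81% higher and 4.14% lower in Hdac3 KO cells. The gate held transcripts of other cells. Neutrophil markers summed to 2751 FPKM in Hdac3 KO cells and 11114 FPKM in WT cells, and 12 of 15 fell. Dividing-cell markers summed to 1843 FPKM in Hdac3 KO cells and 2437 FPKM in WT cells, and 5 of 15 fell. B-lineage markers summed to 3981 FPKM in Hdac3 KO cells and 3401 FPKM in WT cells, and 4 of 9 rose. Of the 9, 8 log2 fold changes were positive and 1 was negative, that of Cd24a, the most abundant of them. Cd24a was 1195 FPKM in Hdac3 KO cells and 1523 FPKM in WT cells and was not called. Plasmacytoid dendritic cell markers summed to 3117 FPKM in Hdac3 KO cells and 2433 FPKM in WT cells, and 0 of 8 were called by Cuffdiff. At an unadjusted p under 0.05, 2 of the 8 were higher, where 8.16% of all tested entries were higher. In bulk RNA, fewer cells of a type and less RNA per cell cannot be told apart.

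Glycolysis splits glucose into pyruvate in the cytosol, with hexokinase as its entry step and phosphofructokinase as its committed step. Lactate dehydrogenase interconverts pyruvate and lactate, monocarboxylate transporters carry lactate across the membrane with a proton, and pyruvate dehydrogenase kinases restrain the entry of pyruvate into mitochondria. The pentose phosphate pathway branches off at glucose 6-phosphate and supplies NADPH and ribose for nucleotides, which dividing pro-B and large pre-B cells need.

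Of the 30 genes, 3 fell in Hdac3 KO cells, or 10% against 4.14% of all tested entries, and 1 rose, or 3.33% against 2.81%. The genes that fell were Hk3, a hexokinase, and the lactate transporters Slc16a1 and Slc16a3, and the gene that rose was Ldhb, the heart-type lactate dehydrogenase subunit. The share that rose lies near the share of all entries. The log2 fold change, Hdac3 KO over WT, was negative for 19 genes and positive for 11, with a median of -0.18, where the median of all tested entries was 0.03 and 46.5% of them were negative. At an unadjusted p under 0.05, 9 of the 30 were lower, or 30% against 8.95% of all tested entries, and 1 was higher, or 3.33% against 8.16%. Besides the 3 that fell, the 6 lower genes at that looser level were Hk2, Pfkl, Tpi1, Pgk1, Ldha and Pgd, and none of these passed the test over all entries. Summed over the 30 genes, the level was 1651 FPKM in Hdac3 KO cells and 1888 FPKM in WT cells, or 0.290% of all FPKM in Hdac3 KO cells and 0.323% in WT cells.

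The promoters of the 4 called genes are shown so that the sequence around the start of the genes the results turn on stands beside their levels. Each window runs from 250 bases before to 50 bases after the RefSeq transcription start in the GRCm38.p6 build, which has the coordinates of mm10, the build in the submitters' processing notes. Hk3 is read from chr13:55021336-55021635 on the minus strand, and Slc16a1 from chr3:104638414-104638713 on the plus strand. Slc16a3 is read from chr11:120948817-120949116 on the plus strand, and Ldhb from chr6:142507908-142508207 on the minus strand. The deposited Slc16a3 locus begins at 120948484, upstream of the whole Slc16a3 window, so the sequence around that earlier start is not shown. Capitals mark the letters ACGTG on either strand, a form of the core bound by hypoxia-inducible factors, called the core below. They also mark CACGTG, the E-box bound by MYC and by the MLX partners, which always holds that core. The form GCGTG was not searched or marked.
Hk3: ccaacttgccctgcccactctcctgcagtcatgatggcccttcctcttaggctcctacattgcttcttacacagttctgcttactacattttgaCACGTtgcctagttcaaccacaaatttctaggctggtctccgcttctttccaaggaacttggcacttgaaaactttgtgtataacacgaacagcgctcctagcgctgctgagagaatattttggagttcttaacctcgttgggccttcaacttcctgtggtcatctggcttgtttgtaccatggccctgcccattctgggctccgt
Slc16a1: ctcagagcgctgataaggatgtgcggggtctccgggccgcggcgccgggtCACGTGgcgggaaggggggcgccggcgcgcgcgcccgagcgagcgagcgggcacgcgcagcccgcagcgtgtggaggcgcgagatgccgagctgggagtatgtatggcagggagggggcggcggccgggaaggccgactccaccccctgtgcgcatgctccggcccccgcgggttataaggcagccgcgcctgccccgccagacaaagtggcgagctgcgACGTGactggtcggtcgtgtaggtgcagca
Slc16a3: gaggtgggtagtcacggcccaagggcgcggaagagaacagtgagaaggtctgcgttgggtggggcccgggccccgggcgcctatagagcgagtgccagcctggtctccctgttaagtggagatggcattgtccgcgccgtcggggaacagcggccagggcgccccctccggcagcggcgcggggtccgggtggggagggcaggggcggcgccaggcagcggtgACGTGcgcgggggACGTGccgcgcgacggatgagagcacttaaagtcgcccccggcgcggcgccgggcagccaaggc
Ldhb: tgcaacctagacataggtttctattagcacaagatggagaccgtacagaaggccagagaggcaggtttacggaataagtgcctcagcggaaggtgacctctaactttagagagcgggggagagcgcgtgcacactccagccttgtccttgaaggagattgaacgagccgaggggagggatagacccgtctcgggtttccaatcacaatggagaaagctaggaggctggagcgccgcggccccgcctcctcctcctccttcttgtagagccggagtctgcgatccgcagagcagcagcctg
The Slc16a1 window holds 1 E-box, whose first base lies at -200 from the start, and a further core at 20. Slc16a3 holds 2 cores, at -27 and -14, and Hk3 holds 1, at -156. Ldhb holds none of these marked letters in this window, but like Slc16a1 it holds the unsearched GCGTG. Slc16a1 and Slc16a3 are GC-rich, with 73.7% and 73.3% G and C and with 42 and 36 CG pairs, while Ldhb has 57.3% and 17 pairs and Hk3 49% and 7 pairs. Over all 32851 RefSeq windows of this length, the median was 52.7% and 7 CG pairs.

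Promoter windows were listed for 30 of the 31 genes, Eno1 included, in 44 windows. The core ACGTG was in 45.5% of these windows and in 19.6% of all windows. The E-box CACGTG was in 11.4% of the 44 and in 7.15% of all. The GC box GGGCGG, searched on both strands, was in 56.8% and 35.7%. GAGGAAGT, a PU.1-type letter string, was in 0 of the 44 windows and in 3.20% of all. At so low a share few of the 44 windows would hold it, and variants of the string were not searched, so the 0 says little. The 44 windows were richer in G and C, with a median of 59.5% and 19 CG pairs, and the part of base composition in these shares was not tested. Among tested genes the 17 with ACGTG in any window had a median log2 fold change of -0.32, ranging from -1.45 to 0.42. The 12 without it had -0.10, ranging from -0.51 to 0.64. These ranges overlap. Hk3, Slc16a1 and Slc16a3, which fell, are among the 17, and Ldhb, which rose, is among the 12. GCGTG was not searched, so the split does not separate genes with and without a hypoxia-inducible factor core. The difference between the 2 sides was not tested.

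Glucose enters through facilitative transporters. Slc2a1, the widely expressed GLUT1, was 10.6 FPKM in Hdac3 KO cells and 10.1 FPKM in WT cells. Slc2a3, the high-affinity GLUT3, was 16.4 FPKM in Hdac3 KO cells and 19.9 FPKM in WT cells. Neither passed the test, with q of 0.931 and 0.525 in the authors' deposited table. The 2 genes kept their order in both genotypes, Slc2a3 above Slc2a1.

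The hexokinases, which trap glucose as glucose 6-phosphate, differed among themselves. Hk3, an isoenzyme known mainly from myeloid cells, fell to 2.20 FPKM in Hdac3 KO cells, against 6.00 FPKM in WT cells, a 2.72-fold lower level with q = 0.0016 in the authors' deposited table. Its log2 fold change was -1.45, with an approximate SE of 0.37 taken from the authors' test statistic, and 2.06% of tested entries had a change as low or lower. Hk1, the housekeeping hexokinase, was 14.1 FPKM in Hdac3 KO cells and 13.9 FPKM in WT cells, a difference well inside its approximate SE of 0.31 on the log2 scale. Hk2, the inducible and insulin-responsive isoenzyme, was 1.83 FPKM in Hdac3 KO cells and 2.91 FPKM in WT cells, and it missed the threshold with q = 0.058 in the authors' deposited table. Hk2 is the uncalled gene closest to the threshold, and Ldhb, at q = 0.0472 in that table, the called gene closest to it.

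The difference between Hk3 and Hk1 in log2 fold change was -1.46. Its approximate SE was 0.48 if the errors of the 2 genes are independent, and its approximate 95% interval ran from -2.41 to -0.51. This pair, like the other isoenzyme pairs compared below, was chosen with earlier results of these data known. Summed, the hexokinases were 18.1 FPKM in Hdac3 KO cells and 22.8 FPKM in WT cells. Hk3 made up 12.2% of that sum in Hdac3 KO cells and 26.3% in WT cells, and Hk1 made up 77.7% in Hdac3 KO cells and 60.9% in WT cells. The 15 neutrophil markers, of which 12 fell, had log2 fold changes from -2.10 to -0.87, with a median of -1.97. Their single levels ran from 1.49 to 1172 FPKM in Hdac3 KO cells and from 2.81 to 4815 FPKM in WT cells, so none was at 0 in either genotype. Their part in the Hk3 result was not tested. Hk3 also shares its locus with Unc5a, a gene on the opposite strand whose exons overlap it by at most 34 bases and whose level was 0.570 FPKM in Hdac3 KO cells and 0.672 FPKM in WT cells.

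**Figure D1:**
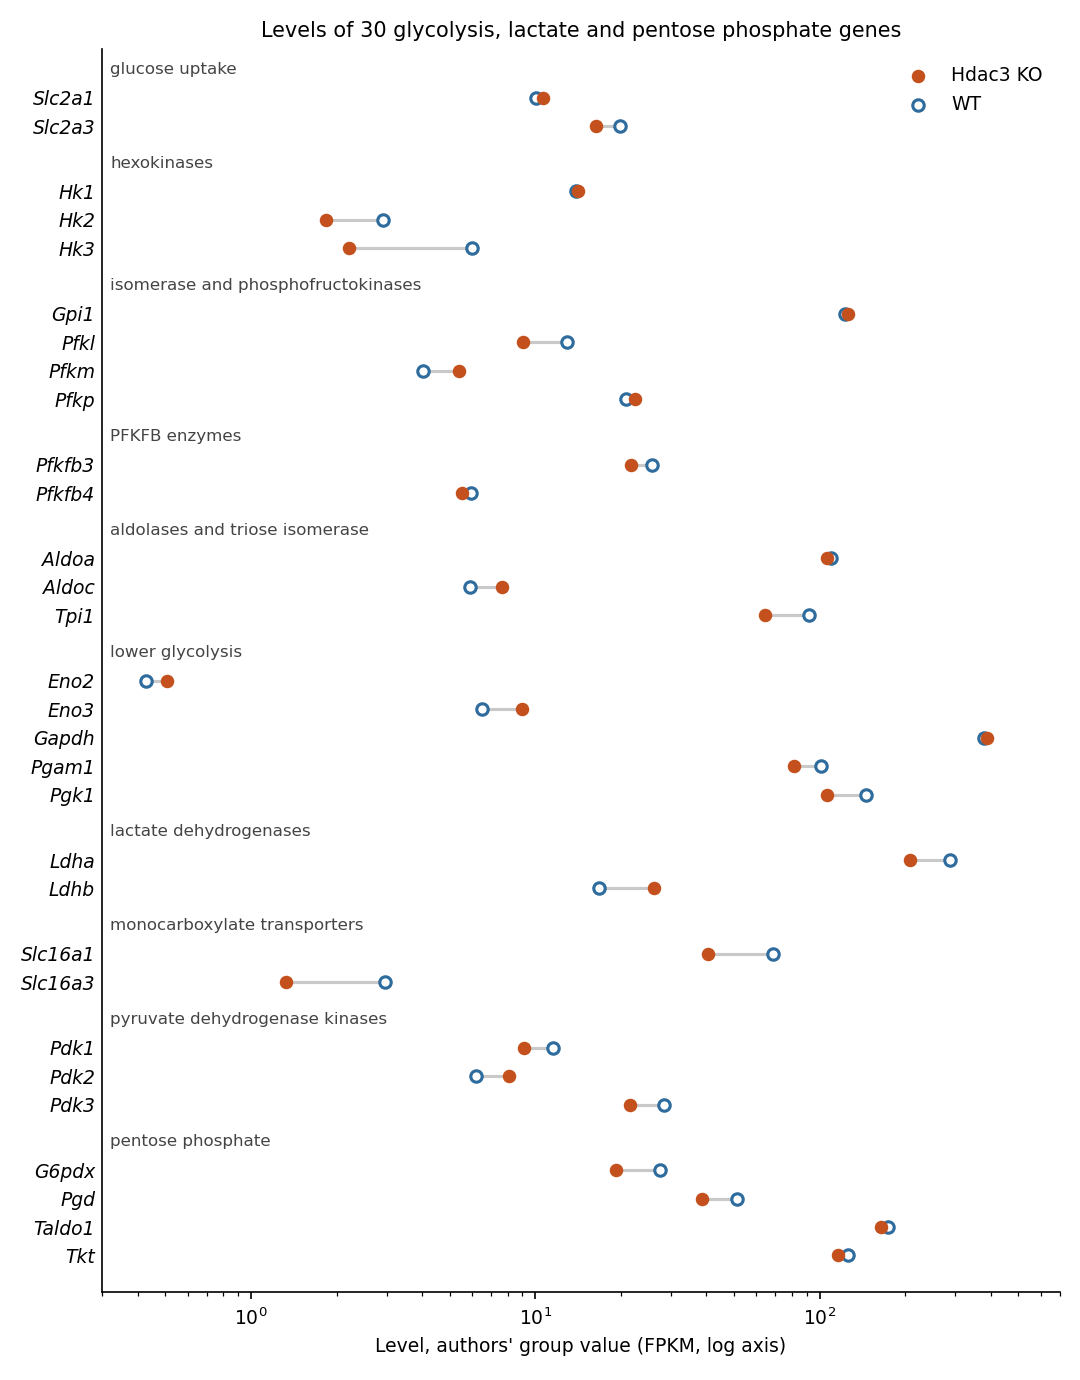
Level of each gene in FPKM on a log axis, in Hdac3 KO cells (filled orange) and WT cells (open blue), 1 authors' group value per genotype, grouped by step. The longest lines between genotypes are those of Hk3, at 2.20 FPKM in Hdac3 KO and 6.00 FPKM in WT cells, and Slc16a3, at 1.33 FPKM in Hdac3 KO and 2.96 FPKM in WT cells, while Ldhb runs the other way.

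In the next steps, glucose 6-phosphate is isomerised and phosphorylated again. Gpi1, the isomerase, was 126 FPKM in Hdac3 KO cells and 123 FPKM in WT cells. Of the phosphofructokinases, the platelet-type Pfkp was 22.4 FPKM in Hdac3 KO cells and 20.9 FPKM in WT cells, and was the highest of the 3 in both. The liver-type Pfkl was 9.05 FPKM in Hdac3 KO cells and 12.9 FPKM in WT cells, with q = 0.11 in the authors' deposited table. The muscle-type Pfkm was 5.41 FPKM in Hdac3 KO cells and 4.04 FPKM in WT cells, and its approximate SE of 0.90 on the log2 scale was the highest of the 30 genes. None of the 3 passed the test, and their sum was 36.8 FPKM in Hdac3 KO cells and 37.8 FPKM in WT cells. The bifunctional enzymes Pfkfb3 and Pfkfb4 set the level of fructose 2,6-bisphosphate, an activator of phosphofructokinase. Pfkfb3 was 21.7 FPKM in Hdac3 KO cells and 25.7 FPKM in WT cells, and Pfkfb4 was 5.51 FPKM in Hdac3 KO cells and 5.95 FPKM in WT cells, and neither passed the test.

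Aldolase and triose phosphate isomerase yield the triose phosphates. Aldoa, the main aldolase here, was 106 FPKM in Hdac3 KO cells and 109.5 FPKM in WT cells. Aldoc, the brain-type form, was 7.66 FPKM in Hdac3 KO cells and 5.90 FPKM in WT cells, or 6.73% of the aldolase sum in Hdac3 KO cells and 5.11% in WT cells. Tpi1 was 64.1 FPKM in Hdac3 KO cells and 91.6 FPKM in WT cells, a log2 fold change of -0.51 that did not pass the test, with q = 0.11 in the authors' deposited table.

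In the later steps of glycolysis, which yields ATP, none of 5 genes passed the test. Gapdh, the most abundant of the 30, was 387 FPKM in Hdac3 KO cells and 379.5 FPKM in WT cells, with an approximate 95% interval of the log2 fold change from -0.54 to 0.60. Pgk1 was 106 FPKM in Hdac3 KO cells and 146 FPKM in WT cells, and Pgam1 was 81.2 FPKM in Hdac3 KO cells and 102 FPKM in WT cells, with log2 fold changes of -0.45 and -0.32. The 2 minor enolases lay on the other side of 0. Eno3, the muscle-type enolase, was 8.95 FPKM in Hdac3 KO cells and 6.48 FPKM in WT cells, and Eno2, the neuronal one, was 0.506 FPKM in Hdac3 KO cells and 0.427 FPKM in WT cells. The entry that joins Eno1 and Gm5506, which is no member, was 45.0 FPKM in Hdac3 KO cells and 50.5 FPKM in WT cells, with q = 0.829 in the authors' deposited table. Gapdh, Ldha, Pgam1, Aldoa and Eno1 have processed copies elsewhere in the mouse genome, and the sources used here do not say how fragments that fit several copies were shared, so their levels are less certain.

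The lactate dehydrogenase subunits had log2 fold changes of opposite sign. Ldhb, the heart-type subunit, rose to 26.1 FPKM in Hdac3 KO cells, against 16.7 FPKM in WT cells, a 1.56-fold higher level with q = 0.0472 in the authors' deposited table. Ldha, the muscle-type subunit that prevails in proliferating cells, was 209 FPKM in Hdac3 KO cells and 289 FPKM in WT cells, and did not pass the test, with a log2 fold change of -0.47 and q = 0.186 in that table. The difference between Ldhb and Ldha in log2 fold change was 1.11, with an approximate SE of 0.40 if their errors are independent and an approximate 95% interval from 0.34 to 1.89. Ldhb made up 11.1% of the summed subunit level in Hdac3 KO cells and 5.48% in WT cells, and Ldha stood 7.99-fold above Ldhb in Hdac3 KO cells and 17.3-fold above it in WT cells. Of 9 B-lineage markers, 8 had positive log2 fold changes in the same samples, with a list median of 0.49. All 8 plasmacytoid dendritic cell markers had positive ones, with a median of 0.40. The part of either list in the Ldhb result was not tested. The call on Ldhb is close to the threshold. It was lost with Benjamini-Hochberg adjustment over entries of at least 1 FPKM in both genotypes, at q = 0.0518, and with a normal approximation to the authors' statistic, at q = 0.236.

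Both lactate transporters fell. Slc16a1, encoding MCT1, the transporter found in most cells, fell to 40.4 FPKM in Hdac3 KO cells, against 68.8 FPKM in WT cells. That was a 1.70-fold lower level with q = 0.00414 in the authors' deposited table, and its approximate SE of 0.22 around a log2 fold change of -0.77 was the lowest of the 30 genes. Slc16a3, encoding MCT4, an exporter of highly glycolytic cells, fell to 1.33 FPKM in Hdac3 KO cells, against 2.96 FPKM in WT cells, with q = 0.00644 in the authors' deposited table. Its log2 fold change was -1.15 with an approximate SE of 0.41, and the normal approximation gave q = 0.109. Slc16a1 was 30.3-fold above Slc16a3 in Hdac3 KO cells and 23.3-fold above it in WT cells, so the sum of both, 41.7 FPKM in Hdac3 KO cells and 71.8 FPKM in WT cells, is nearly that of Slc16a1. The changes of the 2 transporters did not differ beyond their error, with a difference of -0.38 and an approximate 95% interval from -1.29 to 0.53.

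Values of other transcripts stand beside these falls. The 5 dividing-cell markers that fell included Ccnb2, at 86.5 FPKM in Hdac3 KO cells and 168 FPKM in WT cells, and Rrm2, at 172 FPKM in Hdac3 KO cells and 275 FPKM in WT cells. All 15 markers of this list had negative log2 fold changes, with a median of -0.46. The neutrophil list above moved in the same samples. The part of either list in the transporter result was not tested. Bsg, the chaperone that brings both transporters to the membrane, was 103 FPKM in Hdac3 KO cells and 94.1 FPKM in WT cells. Its approximate 95% interval on the log2 scale, from -6.48 to 6.72, is too wide to say whether it differed.

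**Figure D2:**
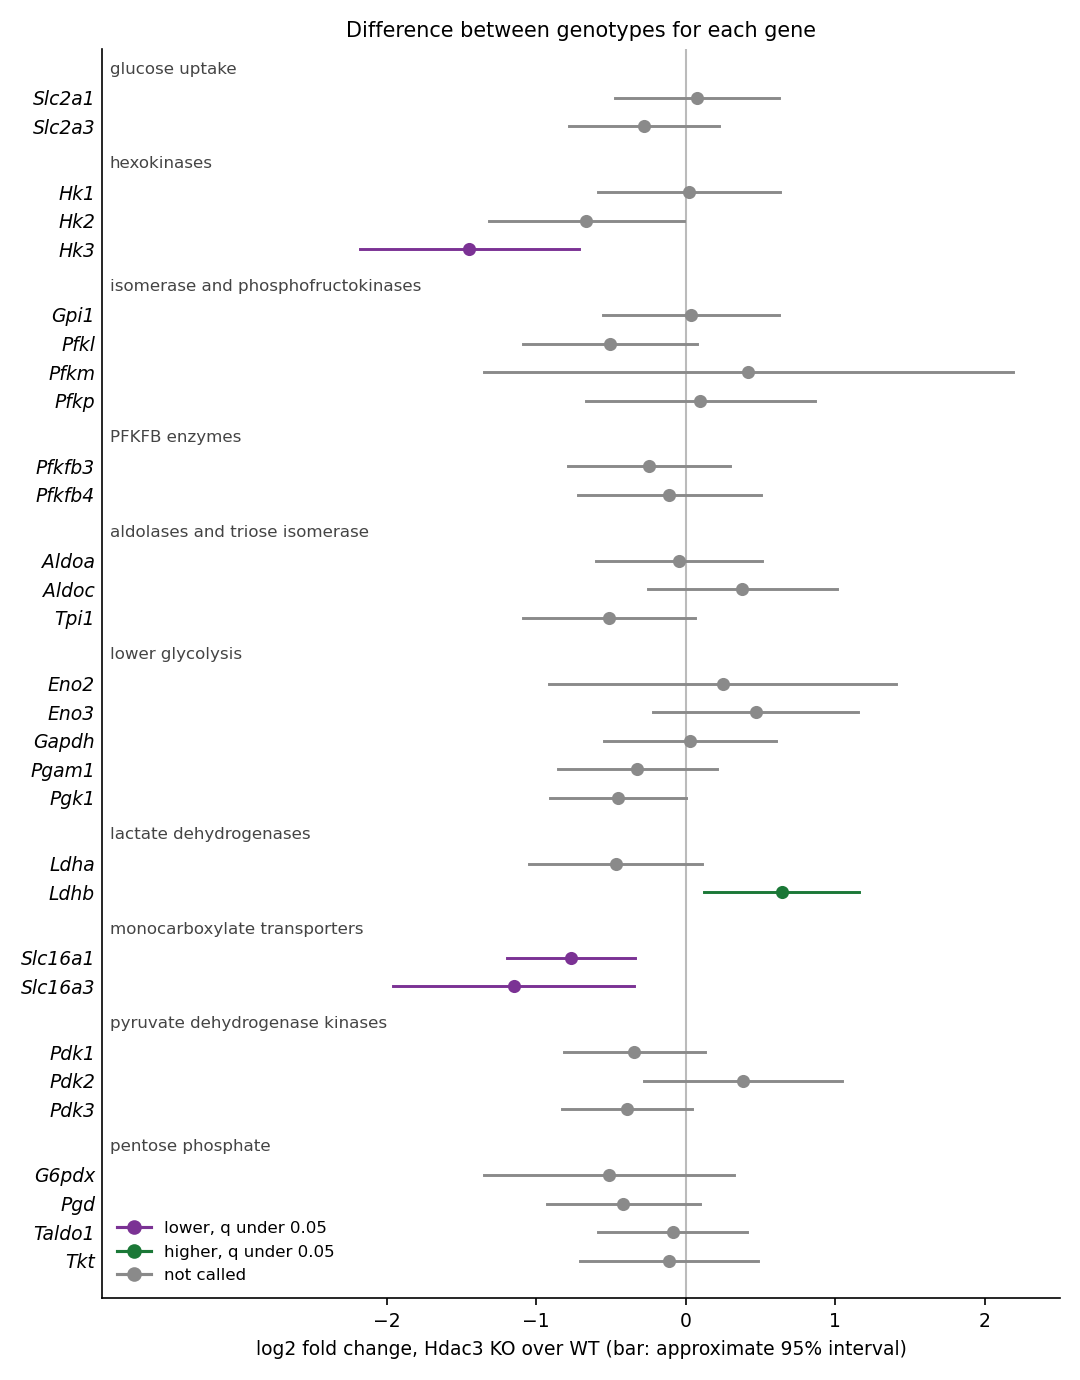
Log2 fold change, Hdac3 KO over WT, of each gene on the x axis, with approximate 95% intervals taken from the authors' test statistic and colours for the authors' call. Hk3, Slc16a1 and Slc16a3 lie left of 0, Ldhb right of 0, and the interval of Pfkm, from -1.35 to 2.19, is the widest.

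Pyruvate dehydrogenase kinases phosphorylate and switch off the complex that turns pyruvate into acetyl-CoA. Pdk1 was 9.09 FPKM in Hdac3 KO cells and 11.6 FPKM in WT cells, Pdk3 was 21.6 FPKM in Hdac3 KO cells and 28.3 FPKM in WT cells, and Pdk2 was 8.08 FPKM in Hdac3 KO cells and 6.19 FPKM in WT cells. None of the 3 passed the test. The approximate interval of the difference between Pdk2 and Pdk3, from -0.01 to 1.57 on the log2 scale, includes 0. Pdk3 was the highest of the family in both genotypes, with 55.7% of its sum in Hdac3 KO cells and 61.5% in WT cells.

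**Figure D3:**
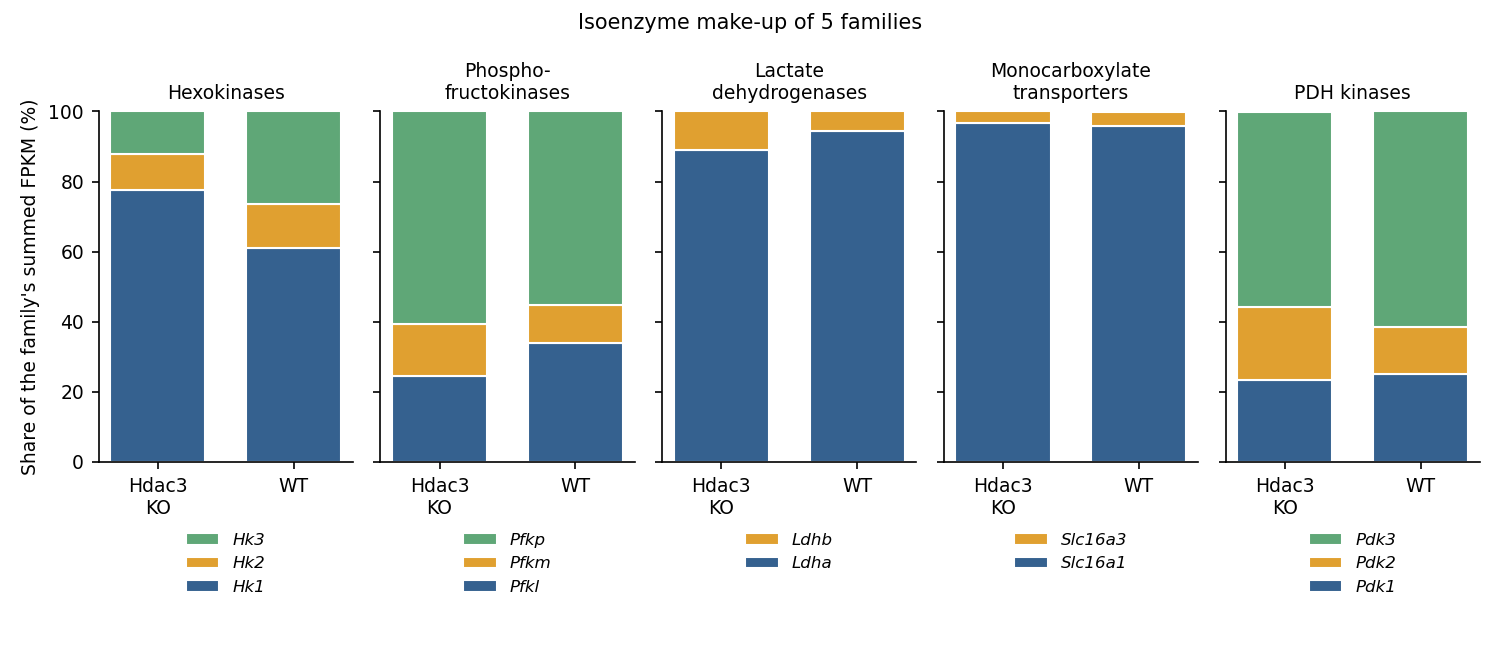
Share of each isoenzyme in the summed FPKM of its family, in percent, for Hdac3 KO cells (left bar of each pair) and WT cells (right bar), with no error because only group values were used. Hk3 takes 12.2% of the hexokinases in Hdac3 KO and 26.3% in WT cells, and Ldhb 11.1% of the lactate dehydrogenases in Hdac3 KO and 5.48% in WT cells.

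The pentose phosphate genes had 4 negative log2 fold changes and 0 calls by Cuffdiff, with 1 lower at an unadjusted p under 0.05. Of all tested entries, 46.5% were negative and 8.95% were lower at that unadjusted level. The oxidative arm makes NADPH. G6pdx, its first enzyme, was 19.2 FPKM in Hdac3 KO cells and 27.4 FPKM in WT cells, and Pgd, its second, was 38.5 FPKM in Hdac3 KO cells and 51.3 FPKM in WT cells. The oxidative pair summed to 57.7 FPKM in Hdac3 KO cells and 78.8 FPKM in WT cells, a log2 ratio of -0.45. The non-oxidative arm, which shuffles sugar phosphates, was closer between genotypes. Tkt was 116 FPKM in Hdac3 KO cells and 126 FPKM in WT cells, and Taldo1 was 164 FPKM in Hdac3 KO cells and 174 FPKM in WT cells, a log2 ratio of -0.10 for their sum. No test of the difference between the arms was made. G6pdx shares its locus with Ikbkg and has an approximate SE of 0.43, the third highest of the 30 genes.

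Levels ranged from 0.506 FPKM for Eno2 to 387 FPKM for Gapdh in Hdac3 KO cells, and from 0.427 to 379.5 FPKM in WT cells. Gapdh, Ldha and Taldo1 together held 46.0% of the summed level of the 30 genes in Hdac3 KO cells and 44.6% in WT cells. In both genotypes 7 genes were at 100 FPKM or more, and 9 were under 10 FPKM. Eno2 was the 1 gene under 1 FPKM. The approximate SE of the log2 fold change had a median of 0.30 over the 30 genes, as over all tested entries, and the plot of intervals shows the differences that remain possible for the uncalled genes. Of the 26 uncalled genes, 25 were within 1.5-fold of WT and the exception was Hk2. The 3 X-linked genes, Pdk3, Pgk1 and G6pdx, had log2 fold changes between -0.51 and -0.40, where the median of 403 tested X entries was -0.05. On chromosome 6 the 6 genes, among them the near neighbours Eno2, Tpi1 and Gapdh, ranged from -0.66 to 0.64.

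The rest of the pathway was described by 4 lists. Of 25 tested other genes of glycolysis and the pentose phosphate pathway, 0 were called by Cuffdiff, and the median log2 fold change was -0.12. At an unadjusted p under 0.05, 1 of them was lower, or 4% against 8.95% of all tested entries. Pkm2, the pyruvate kinase entry, was 161 FPKM in Hdac3 KO cells and 195.0 FPKM in WT cells, and Pgls, the lactonase of the oxidative pentose phosphate arm, was 278 FPKM in Hdac3 KO cells and 328 FPKM in WT cells. In the list of mitochondrial pyruvate use and the citrate cycle, all 28 tested genes had negative log2 fold changes, from -0.93 to -0.04 with a median of -0.31. None was called by Cuffdiff, with 9 lower at an unadjusted p under 0.05, or 32.1% against 8.95% of all tested entries. The malate dehydrogenases Mdh2 and Mdh1 were its most abundant genes, with 126 FPKM in Hdac3 KO cells and 165 FPKM in WT cells for Mdh2, and 111 FPKM in Hdac3 KO cells and 159 FPKM in WT cells for Mdh1. The dividing-cell markers moved the same way in these samples, and their part was not tested.

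Regulators of glycolysis included 2 that rose and 0 that fell among 21 tested, or 9.52% higher against 2.81% of all tested entries, with a median log2 fold change of 0.08. Foxo1, a forkhead factor restrained by PI3 kinase signalling, rose to 77.6 FPKM in Hdac3 KO cells, against 38.3 FPKM in WT cells, with q = 0.0016 in the authors' deposited table. Mlxip, encoding MondoA, a sugar-sensing partner of MLX, rose to 47.7 FPKM in Hdac3 KO cells, against 28.2 FPKM in WT cells, with q = 0.00756 in that table. Txnip, a target of MondoA that limits glucose uptake, was 199.5 FPKM in Hdac3 KO cells and 155 FPKM in WT cells and did not pass the test. Trp53, encoding p53, was 102 FPKM in Hdac3 KO cells and 82.2 FPKM in WT cells and did not pass it either. Neither Myc, at 37.1 FPKM in Hdac3 KO cells and 34.9 FPKM in WT cells, nor Hif1a, at 35.0 FPKM in Hdac3 KO cells and 38.8 FPKM in WT cells, both singled out after their values were seen, passed the test. Hypoxia response genes outside glycolysis had 2 that rose and 0 that fell among 14 tested, or 14.3% higher against 2.81% of all tested entries, with a median of 0.04. Adm, the vasodilator adrenomedullin, was the 1 gene of this list lower at an unadjusted p under 0.05, or 7.14% against 8.95% of all tested entries. It was 0.061 FPKM in Hdac3 KO cells and 0.496 FPKM in WT cells and did not pass the test over all entries. Ddit4, an inhibitor of mTORC1 signalling, rose to 51.8 FPKM in Hdac3 KO cells, against 31.0 FPKM in WT cells, and Vegfa, the endothelial growth factor, rose to 16.6 FPKM in Hdac3 KO cells, against 10.7 FPKM in WT cells. Bnip3l and Kdm3a, its most abundant uncalled genes, were 53.3 FPKM and 22.6 FPKM in Hdac3 KO cells and 50.8 FPKM and 21.3 FPKM in WT cells. The B-lineage and plasmacytoid dendritic cell markers were mostly higher in the same samples, and their part in these rises was not tested. Nothing here compares these lists with the 30 genes by a test.

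**Figure D4:**
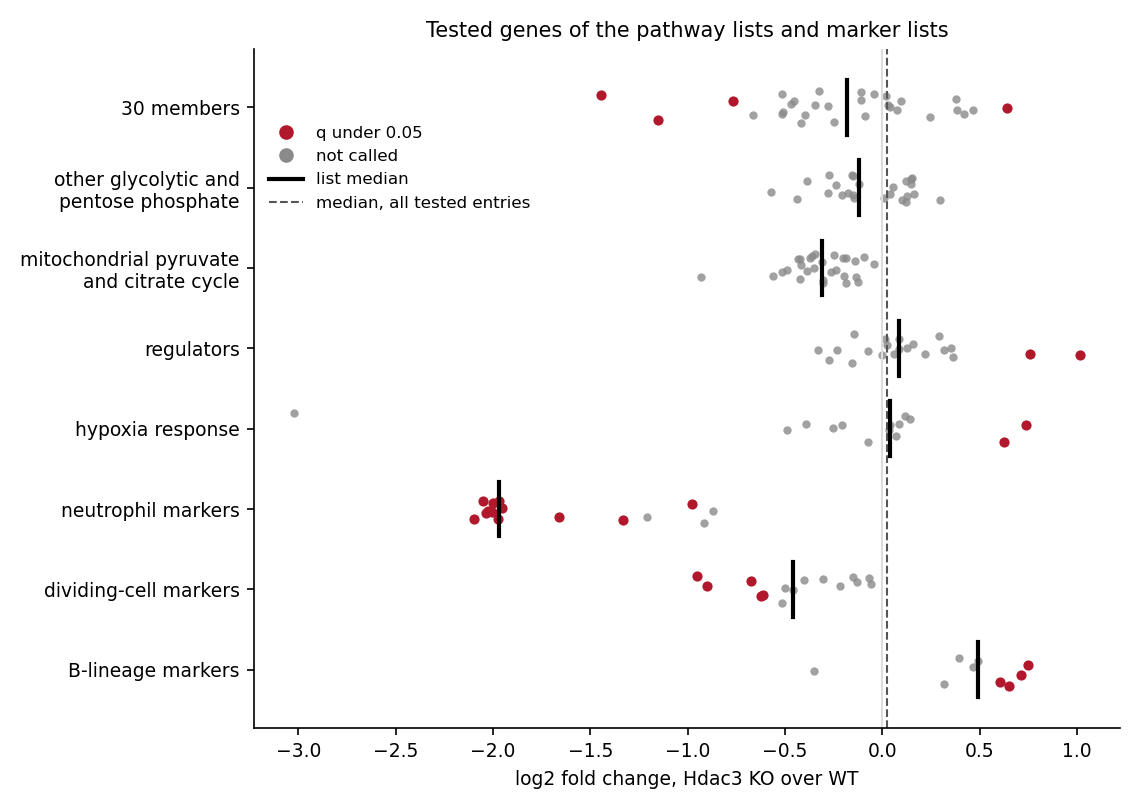
Log2 fold change, Hdac3 KO over WT, on the x axis for each tested gene of 8 lists, with red points for genes at q under 0.05, black bars for list medians and a dashed line at 0.03 for all tested entries; vertical scatter only separates points. The 30 members have a median of -0.18, the mitochondrial list lies wholly left of 0, and the neutrophil markers centre on -1.97.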

How the data were processed

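Trizol-extracted, poly(A)-enriched RNA went into an Illumina RNA library kit, per the labels' protocols, and the sources used here do not say whether strand was kept. Per the submitters' processing notes, Trimmomatic 0.32, TopHat2 2.0.11, Cuffdiff 2.1.1 and the mm10 build were used. Each gene has 1 FPKM value for each genotype in the deposited table, made by the authors from both libraries. It also holds the authors' test statistic, a score, with its p-value and q-value, as deposited. No values per library were used, so no fit, spread or paired test of libraries could be made.

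Log2 fold changes are ratios of those values without a pseudocount. Their approximate SE is the log2 fold change over the authors' statistic, with normal 95% intervals; a normal approximation to that statistic called 471 entries, against 881 by the authors' q, so intervals are rough. Own Benjamini-Hochberg adjustment of the deposited p-values differed from the deposited q by at most 5.27e-07. In simulated statistics for this comparison, 200 of 12643 genes were changed. With changes of 1 log2 unit, the normal approximation recovered 51.0% with 7 false calls, and with changes of 2 log2 units 89.5% with 4. The simulated statistics were drawn from the same normal model that then tested them, so they do not assess the authors' q. Of the members, 7 share a locus with another entry, namely Hk1, Hk3, Pfkm, Pfkp, Tkt, G6pdx and Tpi1.

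Members, lists and tests were chosen with earlier results of these data known. The text names every member, the called genes of each pathway list and the 2 most abundant uncalled ones; other genes were singled out after their values were seen. Lists are described by counts and medians. The remaining marker lists gave 0 of 6 called for T and NK cells and 0 of 3 for erythroid cells by Cuffdiff, with 0 and 2 lower at an unadjusted p under 0.05, and 1 higher and 2 lower of 5 for monocytes and macrophages. Alternatives varied the q threshold, a fold minimum, an FPKM minimum, pseudocounts, centring, shared loci and the normal approximation. The work used scipy 1.17.1, numpy 2.4.6, pandas 2.3.3 and matplotlib 3.10.9 under Python 3.11.15.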

Additional observations from a re-analysis of the deposited data

How the results depend on the processing

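Of the 30 genes, 3 fell at a q under 0.01 and 4 at a q under 0.1, the addition being Hk2. The 1 gene that rose, Ldhb, became 0 at a q under 0.01, with a minimum of 1 FPKM in both genotypes and with the normal approximation. Hk3, Slc16a1 and Slc16a3 kept their direction under the pseudocounts and centring, with calls taken from the authors' q. Slc16a3 lost its call under the normal approximation. Hk3 is not among the entries without shared loci, which left 2 genes that fell. In that setting q was adjusted again over fewer entries, which moved Hk2 from 0.058 to 0.051 without a change in its values. The median log2 fold change ranged from -0.25 to -0.17, and the log2 ratio of the summed level from -0.26, without Gapdh, to -0.18. Centring on the median entry, a shift of 0.03, reversed the sign of Hk1 to -0.0075. In the 4 pathway lists, the 4 genes that rose became 1 with the normal approximation. The 0 that fell became 2 at a q under 0.1 and 1 without shared loci, where q was adjusted again over fewer entries. These alternatives were chosen after seeing the data. Over the whole table the normal approximation called 471 entries and the authors' q 881. No paired analysis was possible because only 1 value per genotype was used, and for the same reason no replicate could be left out. The depth of the libraries is unknown, which leaves the precision of low genes such as Slc16a3 and Eno2 to the authors' model.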

Other observations

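Routes that branch from glycolysis were described through 31 further genes, written down after the table had been seen but without their values. Of 30 tested, 2 fell and 0 rose in Hdac3 KO cells, or 6.67% called in all against 6.95% of all tested entries. In serine and one-carbon synthesis, 7 of 8 log2 fold changes were negative, or 87.5% against 46.5% of all tested entries, with a median of -0.49. At an unadjusted p under 0.05, 5 of the 8 were lower, or 62.5% against 8.95% of all tested entries. By the authors' q, 1 of the 8 fell, or 12.5% against 4.14% of all tested entries. Mthfd1, a one-carbon enzyme of purine synthesis, fell to 16.2 FPKM in Hdac3 KO cells, against 24.5 FPKM in WT cells, with q = 0.0336 in the authors' deposited table. Psat1, the serine pathway transaminase, was 59.6 FPKM in Hdac3 KO cells and 87.1 FPKM in WT cells and did not pass the test. Phgdh, the first enzyme of serine synthesis, was 84.5 FPKM in Hdac3 KO cells and 83.1 FPKM in WT cells.

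Of 9 tested genes of fructose, mannose and galactose entry, 1 fell, or 11.1% against 4.14% of all tested entries, and 0 rose. In this list 6 log2 fold changes were positive and the median was 0.13. At an unadjusted p under 0.05, 3 of the 9 were lower, or 33.3% against 8.95% of all tested entries. Sord, the sorbitol dehydrogenase that leads to fructose, fell to 12.5 FPKM in Hdac3 KO cells, against 21.3 FPKM in WT cells, with q = 0.00855 in the authors' deposited table. Khk, the ketohexokinase, was 43.3 FPKM in Hdac3 KO cells and 34.1 FPKM in WT cells, and Galk1, the galactokinase, was 25.4 FPKM in Hdac3 KO cells and 36.2 FPKM in WT cells, neither past the test. Slc1a5, the glutamine carrier ASCT2, was 184 FPKM in Hdac3 KO cells and 134 FPKM in WT cells, and Idh2, the mitochondrial isocitrate dehydrogenase that makes NADPH, was 76.4 FPKM in Hdac3 KO cells and 61.7 FPKM in WT cells. Of 8 tested genes of glutamine and glutamate use, 0 were called by Cuffdiff, and 4 log2 fold changes were positive and 4 negative. Among these 8, 2 were higher and 0 lower at an unadjusted p under 0.05, where 8.16% of all tested entries were higher and 8.95% lower. The 2 higher genes were Slc1a5 and Gpt2, with log2 fold changes of 0.46 and 0.89. Hexosamine synthesis had 0 of 5 called, with 0 at an unadjusted p under 0.05. Dividing-cell markers were lower in the same samples, and their part in these values was not tested.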
